A study of Mus musculus with 6 samples.

Results

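The regions described here are sites of open chromatin at the ends of genes that were found in every Utx knockout sample and in no wild-type sample of mouse bone marrow progenitors. A region was the merged extent of all peaks, from any of the 6 samples, that shared at least 1 bp. It was kept when all 3 knockout samples and 0 wild-type samples had a peak in it and when it lay within 1 kb of an annotated end, start or 3′ end, of a protein-coding gene. The rule kept 260 of 75961 regions. Because presence in knockout and absence in wild type chose these regions, that contrast is given as a description, with no test. "Gained" below is short for this presence rule and "lost" for its reverse, a peak in all 3 wild-type samples and in 0 knockout samples.

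The study measured open chromatin by ATAC-seq, in which a transposase cuts and tags accessible DNA, in bone marrow cells depleted of cells bearing lineage markers, a preparation rich in stem and progenitor cells. All mice were C57BL/6; 3 samples carried functional Utx (gene symbol Kdm6a) and 3 were Utx knockouts. The title places the work in myeloid leukaemia and in the balance of ETS and GATA transcription programmes. The labels used here give no age, sex, Cre driver or extent of the deletion, and they do not say that the samples of a genotype came from separate mice, so permutation p-values measure only the spread between these samples.

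UTX is a histone H3 lysine 27 demethylase that works within the COMPASS-like complexes at enhancers and promoters. Most active genes keep an open stretch of chromatin over the start site, and many mammalian starts lie in CpG islands, which are GC-rich stretches where CpG pairs are retained. Genes used by a single lineage, such as those of B lymphocytes, more often have CpG-poor starts that open when that lineage's factors bind. Promoters of silent developmental and neuronal genes are commonly CpG islands held by Polycomb proteins, which deposit the mark that UTX removes.

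Promoter sequences show what kind of start was involved. The 250 bases before the start are shown where the whole RefSeq promoter window, 250 bases before to 50 after the start, fell inside the gained region, because these promoters lay wholly inside the merged extent of the knockout peaks. Shown are the 6 widest such cases at an annotated start, with Pax5, the master regulator of B cell identity, added with its values in view. Sequences are from RefSeq, build GRCm38.p6 (mm10), written 5′ to 3′ in the direction of the gene. Capitals mark matches on either strand to any of 16 short motifs that were searched.
Sertad4 (chr1:192855753-192856002, minus strand): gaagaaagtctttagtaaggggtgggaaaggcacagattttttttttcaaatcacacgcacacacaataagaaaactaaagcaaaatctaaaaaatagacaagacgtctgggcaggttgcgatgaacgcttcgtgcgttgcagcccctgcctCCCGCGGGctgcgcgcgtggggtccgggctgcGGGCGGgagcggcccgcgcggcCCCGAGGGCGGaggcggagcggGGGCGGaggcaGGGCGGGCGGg
C1ql3 (chr2:13010865-13011114, minus strand): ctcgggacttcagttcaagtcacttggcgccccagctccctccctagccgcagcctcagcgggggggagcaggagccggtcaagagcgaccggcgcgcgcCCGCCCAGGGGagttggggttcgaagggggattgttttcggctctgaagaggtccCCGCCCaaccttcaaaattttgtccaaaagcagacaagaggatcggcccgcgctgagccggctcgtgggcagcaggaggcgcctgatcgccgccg
Il2ra (chr2:11642542-11642791, plus strand): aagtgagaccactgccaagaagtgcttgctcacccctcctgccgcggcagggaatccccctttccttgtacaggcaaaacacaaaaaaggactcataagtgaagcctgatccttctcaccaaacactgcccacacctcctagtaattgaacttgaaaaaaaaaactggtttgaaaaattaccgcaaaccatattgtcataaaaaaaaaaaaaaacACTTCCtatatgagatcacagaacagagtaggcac
Fam189a1 (chr7:65156529-65156778, minus strand): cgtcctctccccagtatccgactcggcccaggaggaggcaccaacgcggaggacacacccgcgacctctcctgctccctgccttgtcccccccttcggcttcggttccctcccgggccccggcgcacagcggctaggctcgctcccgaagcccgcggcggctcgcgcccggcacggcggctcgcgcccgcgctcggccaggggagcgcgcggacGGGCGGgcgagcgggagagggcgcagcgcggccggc
Gpm6b (chrX:166238693-166238942, plus strand): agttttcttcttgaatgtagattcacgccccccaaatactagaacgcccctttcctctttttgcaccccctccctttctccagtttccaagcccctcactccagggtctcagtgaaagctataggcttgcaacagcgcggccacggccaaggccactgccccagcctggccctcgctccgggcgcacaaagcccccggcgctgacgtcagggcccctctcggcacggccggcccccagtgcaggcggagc
Sema5a (chr15:32244563-32244812, plus strand): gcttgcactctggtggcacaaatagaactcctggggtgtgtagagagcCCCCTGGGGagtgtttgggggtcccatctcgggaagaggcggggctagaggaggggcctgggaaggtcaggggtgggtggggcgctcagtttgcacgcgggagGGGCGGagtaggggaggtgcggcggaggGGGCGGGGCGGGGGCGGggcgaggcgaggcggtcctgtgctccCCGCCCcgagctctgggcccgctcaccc
Pax5 (chr4:44710695-44710944, minus strand): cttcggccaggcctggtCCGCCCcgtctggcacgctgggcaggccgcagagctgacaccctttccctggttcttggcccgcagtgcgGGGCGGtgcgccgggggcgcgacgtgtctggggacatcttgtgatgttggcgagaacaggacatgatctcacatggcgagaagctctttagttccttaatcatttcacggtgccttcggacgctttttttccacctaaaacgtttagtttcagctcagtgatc

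The promoters of Sertad4, C1ql3, Fam189a1, Gpm6b, Sema5a and Pax5 were GC-rich, with 58.8% to 78.4% G and C. That of Il2ra, which encodes the alpha chain of the interleukin 2 receptor, had 42.4%. The ratio of observed to expected CpG pairs was 1.12 at Sertad4, 1.02 at Fam189a1, 0.880 at Pax5, 0.836 at C1ql3, 0.647 at Gpm6b and 0.590 at Sema5a, against 0.284 at Il2ra. The capitals in Sertad4, C1ql3 and Sema5a are GC boxes bound by SP and KLF factors (GGGCGG) and matches to the core recognised by EBF1 (CCCNNGGG), a B lineage factor; at Sertad4 and C1ql3 an EBF1 core overlaps a GC box. Fam189a1 and Pax5 held GC boxes only, Il2ra held an ETS core (GGAAGT, here on the other strand), and Gpm6b held none of the 16. A match is a run of letters in the reference and is no evidence of binding.

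Gained regions made up 3566 of the 75961 regions, or 4.69%. Among the 14178 regions at gene ends, 260 were gained, or 1.83%, so ends carried a smaller share of gained regions than the genome as a whole. Gene ends held 7.29% of all gained regions (Wilson 95% interval 6.48% to 8.19%, which covers counting error only) and 6.80% of the 8042 lost regions (6.27% to 7.37%), intervals that overlap. The other 3306 gained regions lay inside genes, away from their ends (1718), or between genes (1588). The 260 regions touched the ends of 289 of 21887 protein-coding genes, a background of 1.32% of all such genes and 2.23% of the 12942 genes that had any region at an end. Lost regions lay at the ends of 587 genes, or 2.68%, and 5 genes had both a gained and a lost region.

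At gene ends most regions were shared by both genotypes. A peak in all 6 samples was found at 10650 of the 14178 regions, and 547 were lost. Regions with 0 wild-type peaks numbered 280 with a peak in 1 knockout sample, 143 with a peak in 2 and 260 with a peak in 3. A further 118 regions had a peak in all 3 knockout samples and in 1 wild-type sample. The knockout lists held 45260, 50249 and 44576 peaks and the wild-type lists 57405, 57917 and 57622, and the depth behind each list is unknown. The Kdm6a gene itself had a peak at an end in all 6 samples, with 4, 5 and 5 peaks inside the gene in wild type and 6, 6 and 5 in knockout, which does not check a deletion of exons.

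The 12 widest regions were ranked by mean bases under peaks in the 3 knockout samples. None of them had a wild-type peak elsewhere at the same end, beside 50 of all 260. At that share so small a group can hold 0. The annotated end itself lay inside 10 of the 12, beside 107 of the 260. The widest was at the start of Sertad4 on chromosome 1, with 1391, 2199 and 2260 bp under peaks in knockout samples 1, 2 and 3. The start of C1ql3, which encodes a secreted synaptic protein of the C1q family, had 1040, 1734 and 1426 bp. Il2ra had 993, 1332 and 1571 bp over its start. In all 3 of these regions sample 1 was the narrowest.

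Fam189a1 had 1235, 1337 and 1323 bp over its start, and the 3 samples covered nearly the same bases. Ptch1, the receptor for Hedgehog ligands, had 1037, 1294 and 1231 bp over its start. Bcat1, the cytosolic aminotransferase of branched-chain amino acids, had 520, 1035 and 1089 bp over its start. Sample 1 thus had far fewer bases under peaks there than the other samples. The start of Gpm6b, a neural proteolipid-family membrane protein on chromosome X, had 851, 894 and 1103 bp. Ankrd33b had 807, 1000 and 1047 bp over its start, with the nearest wild-type peak 799 bp away.

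The remaining wide regions were at other or unassigned ends. Fetub, which encodes a liver-secreted protease inhibitor, had 1176, 1367 and 1349 bp, and its region ended 5 bp before the 3′ end of the gene. Mapk4, an atypical MAP kinase, had 1360, 1243 and 1200 bp at an end whose kind is unknown because the gene has no RefSeq promoter entry in the table used. Sample 1 was the widest there. The uncharacterised gene 4930426D05Rik had 3 gained regions, more than any other gene, of which the wider pair had 1110, 1092 and 928 bp and 848, 1081 and 1167 bp. Within 20 kb of that gene, outside these regions, peaks numbered 0, 2 and 1 in wild type and 5, 5 and 4 in knockout.

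**Figure D1:**
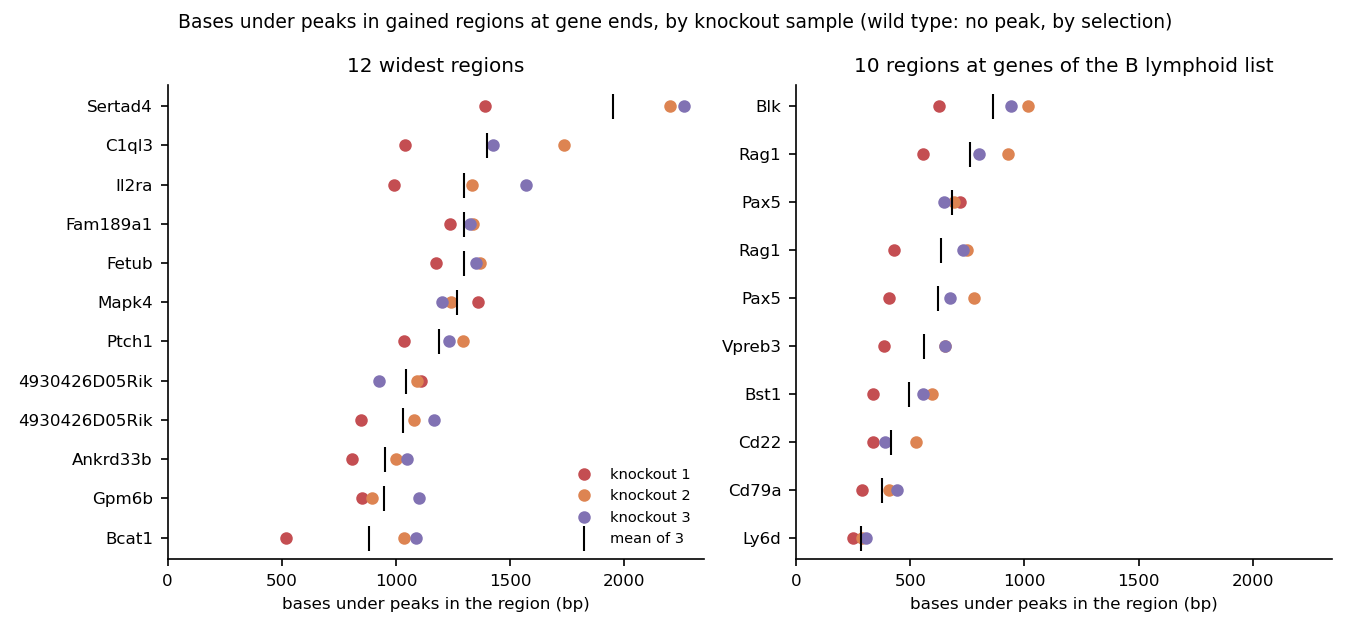
Bases under peaks (bp, horizontal axis) in each of the 3 knockout samples (coloured points) with their mean (black tick), for the 12 widest gained regions at gene ends (left) and 10 at genes of the B lymphoid list (right). Knockout sample 1 is the leftmost point in most rows, with Mapk4, 1 of the 4930426D05Rik regions and 1 of the Pax5 regions as exceptions that place it rightmost.

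The position along the gene differed between region classes. Of the 260 gained regions, 132 lay at a start, 67 at a 3′ end and 61 at an end of unknown kind. Among those of known kind, 66.3% were at a start (59.5% to 72.5%), against 47.9% of lost regions at gene ends (43.3% to 52.5%) and 92.3% of regions open in all 6 samples (91.7% to 92.9%). Regions at gene ends with any other pattern of peaks had 61.2% at a start (59.1% to 63.3%). That interval overlaps the one of gained regions, so the share at a start does not set gained regions apart from these. The annotated end itself lay inside the region for 107 gained regions (41.2%), for 29.1% of lost regions and for 84.0% of regions in all samples. Of 134 pairs of a gained region and a start, 61 covered the start, 25 lay upstream and 48 downstream. Of 76 pairs with a 3′ end, 21 covered it, 31 lay before it and 24 beyond it.

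**Figure D2:**
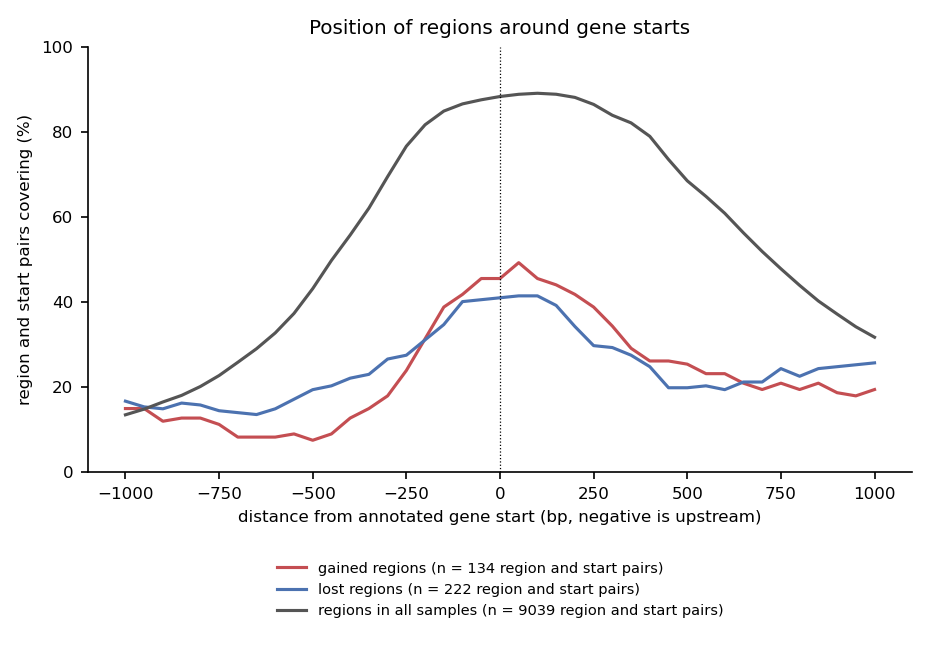
Share of region and start pairs (%, vertical axis) whose region covers each position around the annotated gene start (bp, horizontal axis), for 134 gained, 222 lost and 9039 shared pairs. The curve of gained regions was highest 50 bp after the start, at 49.3%, and was lower 500 bp upstream, at 7.46%, than 500 bp downstream, at 25.4%.

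At 500 bp upstream of a start, 7.46% of gained pairs, 19.4% of lost pairs and 43.1% of pairs shared by all samples were covered. At 500 bp downstream the same classes had 25.4%, 19.8% and 68.5%. Lost pairs had 14.4% at 750 bp upstream and 24.3% at 750 bp downstream, and gained pairs 11.2% and 20.9%. Pairs shared by all samples had 22.7% and 47.8%. At 750 bp each class was thus covered more often on the side of the gene body. These shares describe regions, which are not replicates of the genotype, and no test was made on them.

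Within the 1 kb window, most gained regions stood at ends with no other peak in wild type. For 50 of 260 (19.2%, 14.9% to 24.5%), another region with a wild-type peak lay at the same end, and for 210 there was none. A peak in any 1 of the 3 wild-type samples was enough to count, here and for the single genes named below. The share depended on the window, with 2.22% at 500 bp and 43.9% at 2.5 kb, and was 7.73% with the widest 50% of peaks. The mirrored share, lost regions with a knockout peak elsewhere at the end, was 23.0% (19.7% to 26.7%). The nearest wild-type peak was a median of 5326.5 bp away, 56 regions had one within 1 kb and 53 had none within 20 kb. The shortest distance was 86 bp, at Tmem266, and at the 2 regions of Zfpm2 it was 506580 and 507734 bp. Zfpm2, the GATA cofactor FOG2, had 380, 946 and 840 bp in one and 357, 885 and 847 bp in the other, with sample 1 again the narrowest.

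B lymphoid genes were the list with the largest share of genes carrying a gained region at an end: 9 of 30, beside 1.32% of all protein-coding genes. Among them were Cd79a, Cd22, Blk, Pax5, Rag1, Vpreb3, Ly6d and Bst1. A lost region at an end was found for 0 of the 30, beside 2.68% of all protein-coding genes. At that share a list of 30 can readily hold 0, so the lost count does not set the list apart. Gains at B lymphoid genes were known in these data when the list was made, so the count is no independent evidence of its direction. It was 19 when a peak had to cover at least 50% of the region to count and 5 when the window was 500 bp. The 11 regions had a median of 562 bp under peaks per knockout sample, beside 393 bp over all 260. Of the 11, 4 had a wild-type peak elsewhere at the same end, beside 50 of the 260. In bulk samples, more cells of a type and more open chromatin per cell cannot be told apart.

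Rag1, the recombinase that assembles antigen receptor genes, had 2 gained regions on either side of its start. The upstream one, 718 bp away, had 554, 928 and 801 bp under peaks, and the downstream one, 582 bp away, had 429, 747 and 733 bp. A peak of at least 1 wild-type sample lay at the same start. The nearest wild-type peak was 500 bp from the first region and 577 bp from the second. Rag1 therefore had gained regions at an end with a wild-type peak, in a number of wild-type samples that was not counted.

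Pax5 also had 2 gained regions. The region over its start had 408, 781 and 674 bp, and the one 936 bp downstream had 716, 690 and 648 bp. There was no wild-type peak at that start, and within 20 kb of the gene, outside these regions, peaks numbered 3, 3 and 1 in wild type and 6, 7 and 8 in knockout. Knockout samples thus had more peaks than each wild-type sample around Pax5 as well as at its start.

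Among the signalling genes of the list, Blk, a Src-family kinase of the B cell receptor, had 628, 1016 and 943 bp over an end of unknown kind. Cd79a, a signalling chain of that receptor, had 287, 407 and 440 bp, 911 bp upstream of its start, where wild type had another peak. Cd22, an inhibitory lectin of B cells, had 336, 523 and 388 bp, 873 bp downstream of its annotated start. The Cd22 region held a whole RefSeq promoter window of another start of the gene. In each of these 3 regions sample 1 was the narrowest.

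Vpreb3, a relative of the surrogate light chain, had 383, 650 and 653 bp, 919 bp before its annotated 3′ end. That region also held a whole RefSeq promoter window of Vpreb3, so it lay over a start inside the gene. Wild type had another peak at the same end. Bst1, a surface ADP-ribosyl cyclase, had 339, 595 and 556 bp, and Ly6d, a surface marker of early B cell commitment, had 251, 290 and 306 bp. Ebf1 lay just outside the 1 kb window and is described with the threshold.

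Some genes off the list that are also known from B cells were picked out after their values were seen. Cxcr5, the chemokine receptor that guides B cells into follicles, had 338, 553 and 413 bp. Fcmr, the receptor for the Fc part of immunoglobulin M, had 375, 407 and 248 bp over its start, where wild type had another peak. Mzb1, an endoplasmic reticulum protein of B cells, had 473, 537 and 633 bp in a region that also lay at an end of Prob1. The nearest wild-type peak was 440 bp from that region.

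**Figure D3:**
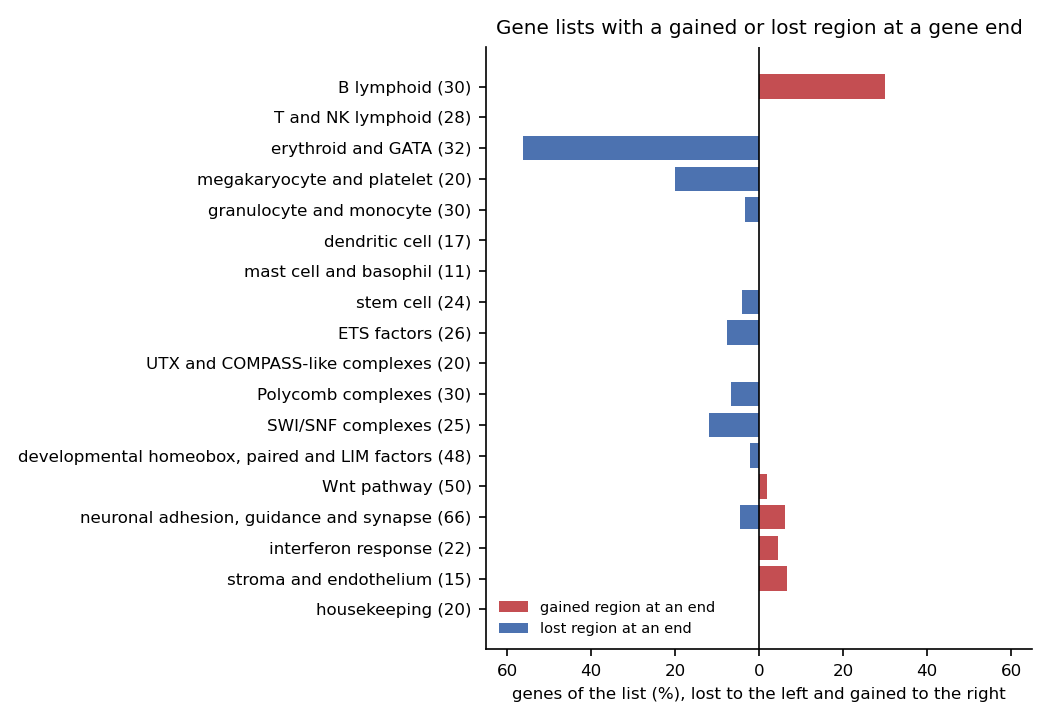
Share of the genes of each list (%, horizontal axis; annotated genes in brackets) with a gained region at an end (red, to the right) or a lost one (blue, to the left). B lymphoid genes had 30.0% gained and 0 lost, and erythroid and GATA genes had 0 gained and 56.3% lost. Over all protein-coding genes the shares were 1.32% gained and 2.68% lost.

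Lists for other blood lineages carried no gained region at a gene end. These were T and NK lymphoid (28 genes), erythroid and GATA (32), megakaryocyte and platelet (20), granulocyte and monocyte (30), dendritic cell (17), mast cell and basophil (11) and stem cell (24). Over all protein-coding genes the shares were 1.32% gained and 2.68% lost. At that share a list this short can readily hold 0 gained genes, so a count of 0 does not set a list apart. Lost regions lay at ends of 18 erythroid and GATA genes, among them Klf1, Epor and the globin genes Hba-a1, Hbb-bs and Hbb-bt, of 4 megakaryocyte and platelet genes, of 1 granulocyte and monocyte gene and of 1 stem cell gene. The ETS factor list (26) had 0 gained and 2 lost, the list of UTX and its COMPASS-like complexes (20) 0 and 0, Polycomb complexes (30) 0 and 2, SWI/SNF complexes (25) 0 and 3, and housekeeping genes (20) 0 and 0.

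Marker lists were also counted in each sample. Genes of the B lymphoid list with a peak at an end numbered 19, 18 and 18 in wild type and 26, 26 and 26 in knockout, a separation partly built in because the gained regions are counted. Without the gained regions the knockout counts were 21, 21 and 21 and the wild-type counts were as before. Of the 30 genes, 3 (Vpreb2, Dntt and Fcer2a) had none in any sample. Outside the 11 gained regions, the list's regions with a peak numbered 24, 24 and 21 in wild type and 27, 28 and 27 in knockout. Erythroid and GATA genes with a peak at an end numbered 28, 28 and 29 in wild type and 14, 16 and 13 in knockout, and megakaryocyte and platelet genes 15, 14 and 13 against 8, 9 and 8. Among all protein-coding genes the numbers were 12233, 12229 and 12186 against 11948, 12184 and 11916. Those of the T and NK list numbered 8, 9 and 8 against 9, 9 and 7, and Cd3e, Cd3g, Cd4 and Cd8a had none in any sample. Stem cell genes numbered 18, 17 and 16 against 16, 16 and 16, with 15 of 24 open in every sample. How far a change in cell makeup accounts for the gained regions was not tested.

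**Figure D4:**
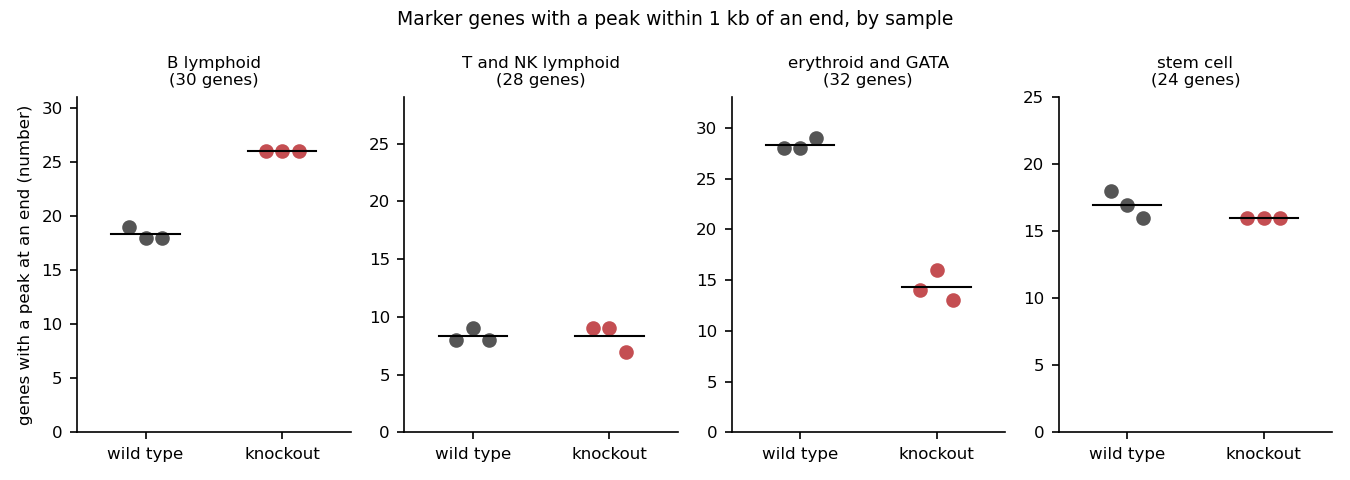
Number of genes of 4 marker lists with a peak within 1 kb of an end (vertical axis) in each wild-type and knockout sample (points) and the mean of 3 samples (line). The genotypes do not overlap for B lymphoid genes, higher in knockout, or for erythroid and GATA genes, lower in knockout; the B lymphoid counts include the gained regions chosen by the rule, without which knockout has 21, 21 and 21.

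The list of neuronal adhesion, guidance and synapse genes had 4 of 66 with a gained region, C1ql3, C1ql1, Sema5a and Efna5, beside 1.32% of all protein-coding genes, and 3 with a lost one, beside 2.68%. Sema5a, an axon guidance semaphorin, had 702, 697 and 713 bp over its start, the closest agreement of the 3 knockout samples in any of the 260 regions, with 95.8% of the covered bases shared. C1ql1, a synaptic relative of C1ql3, had 280, 276 and 347 bp, and the ephrin Efna5 had 295, 652 and 386 bp with 27.8% shared. At C1ql1 79.5% of the covered bases were shared, and at C1ql3 48.0%. Sema5a and C1ql1 were thus more alike across samples than C1ql3 and Efna5. Wild type had another peak at the same end of Efna5, and the nearest wild-type peak was 334 bp from the region.

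Single genes came from 3 other lists. Axin2, a negative regulator and target of Wnt signalling, was the 1 of 50 Wnt genes, with 258, 470 and 318 bp. Irf1, an interferon-induced transcription factor, was the 1 of 22 interferon response genes, with 662, 737 and 896 bp, 779 bp upstream of its start and 419 bp from a wild-type peak. Kdr, the endothelial receptor for vascular endothelial growth factor, was the 1 of 15 stroma and endothelium genes, with 384, 386 and 429 bp. The developmental homeobox, paired and LIM list had 0 of 48 gained and 1 lost, beside 1.32% and 2.68% of all protein-coding genes. Each of the Wnt, interferon and stroma counts rests on 1 gene.

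Developmental regulators outside the lists were picked out with the values in view. Atoh1, a bHLH factor of neural and secretory cells, had 513, 845 and 1128 bp over its start, where wild type had a peak 725 bp away. Neurog2, a proneural bHLH factor, had 219, 334 and 278 bp over its start. Foxb2, a forkhead factor whose whole gene is short, had 2 gained regions, with 616, 668 and 586 bp in one that reaches its 3′ end and 231, 317 and 278 bp in one 531 bp upstream of its start. The nearest wild-type peak was 82638 bp from the first and 80918 bp from the second.

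Notch pathway genes were also seen only after the fact. The ligand Dll1 had 708, 598 and 869 bp, 825 bp downstream of its annotated start. Its region held a whole RefSeq promoter window of another start of the gene. The divergent ligand Dll3 had 268, 284 and 252 bp, 379 bp upstream of its start. Heyl, a transcriptional repressor induced by Notch, had 536, 505 and 672 bp. In these 3 regions sample 1 was not the narrowest.

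Genes with 2 or more gained regions included 4930426D05Rik with 3, and Foxb2, Gm14137, Pax5, Pgpep1l, Prob1, Rag1 and Zfpm2 with 2 each. Conversely, 15 regions lay at ends of 2 or more genes. One of them, at chr18:37842819-37843142, lay within 1 kb of an end of 25 genes and had 306, 319 and 305 bp. Most of these are alternative members of the gamma protocadherin cluster, which share their last exons, and Diaph1 has its end on the other side of the region, 459 bp away. Gene counts that include this cluster therefore count 1 region many times.

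Peak width in gained regions at gene ends differed from that in gained regions elsewhere by less than the spread between samples. The median peak in them was 336, 422.5 and 420 bp in knockout samples 1, 2 and 3, against 340, 420.5 and 420 bp in gained regions away from gene ends. The mean difference was -0.67 bp (SD 3.06, n = 3, two-sided exact sign-flip permutation p = 1, with 0.25 the smallest possible). Lost regions at gene ends had medians of 348, 389 and 445 bp in wild type, which overlap the knockout values of the gained regions (difference -1.17 bp, two-sided exact permutation p = 1, smallest possible 0.1). With every list held to the same number of peaks, the widest ones, that difference was -120.0 bp (exact permutation p = 0.1). That setting drops more narrow peaks from the longer wild-type lists. It therefore selects on width and cannot decide whether the widths differ. Regions at gene ends open in all 6 samples had wider peaks, with medians of 866, 899 and 854 bp in knockout and 933, 917 and 977 bp in wild type. Their median merged extent was 1164 bp, against 495.5 bp for gained and 489 bp for lost regions at gene ends. That extent joins peaks of 6 samples in the first class and of 3 samples in the others.

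Knockout sample 1 was narrower than both others in 175 of the 260 regions (67.3%) and in 68.9% of gained regions away from gene ends. The bases shared by all 3 knockout samples were a median of 63.5% of those covered by any, below the 68.3% in gained regions elsewhere and the 81.8% in regions shared by all 6 samples at gene ends. Between pairs of samples the median was 73.9% for 1 and 2, 73.2% for 1 and 3 and 80.2% for 2 and 3. The 6 regions with the closest agreement were those of Sema5a, Cyp2d22 (94.2%), Fam189a1 (92.0%), Ifi206 (91.9%), Ubash3a (90.8%) and Camkv (90.5%). All but Sema5a and Fam189a1 were under 450 bp in each sample.

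The share of a sample's peaks that lay at any gene end was 26.6%, 24.7% and 26.9% in knockout and 22.4%, 22.2% and 22.2% in wild type. The groups did not overlap and differed by 3.80 percentage points (exact permutation over samples, two-sided, p = 0.1, which is the lowest value 3 against 3 can reach). When every list was held to the same number of peaks, the widest ones, the difference was 0.254 points. That setting changes both the list length and the peaks kept. With the widest 50% of each list the difference was 5.95 points. The part of list length in the difference was not tested alone.

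Around the 289 genes with a gained region at an end, other regions also differed. Within 20 kb, outside the 260, there were 1527 regions, of which 9.63% were gained and 7.01% lost, beside 3.65% and 10.7% of those near all protein-coding genes. Peaks there numbered 1043, 1060 and 1034 in wild type and 990, 1152 and 1059 in knockout, ranges that overlap. Near all protein-coding genes they numbered 47910, 48362 and 48418 against 37283, 41062 and 36636. Around the 9 B lymphoid genes the counts were 47, 42 and 38 against 50, 63 and 59. These genes were chosen on the same contrast, so the values are a description.

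RefSeq promoter windows were overlapped by 81 of the 260 gained regions (31.2%, 25.8% to 37.0%), by 16.5% of lost regions at gene ends (13.6% to 19.8%) and by 70.0% of those in all samples. The 85 windows over gained regions had a median of 61.0% G and C, against 53.7% in the 97 windows over lost regions, 62.0% in windows over shared regions and 56.3% in all 21263 windows. A CpG ratio above 0.6, a common mark of a CpG island, was held by 56.5% of windows over gained regions, 22.7% over lost regions, 80.4% over shared regions and 47.6% of all windows. In base composition, promoters over gained regions thus lay between all promoters and those open in every sample, and promoters over lost regions were CpG-poor.

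Motif matches differed between the windows over gained and lost regions, given here as a description. The GATA site AGATAA was found in 2.35% of windows over gained regions, 26.8% over lost regions and 9.65% of all windows. Its variant TGATAA was in 7.06%, 18.6% and 7.60%. Windows over regions in all samples held AGATAA in 5.40% and TGATAA in 3.34% of cases. Against those, the gained share was lower for AGATAA and higher for TGATAA. The EBF1 core CCCNNGGG was in 31.8% of gained, 15.5% of lost and 15.6% of all windows, and the E2A E-box CAGCTG in 23.5%, 21.6% and 15.6%. The GC box GGGCGG was in 62.4%, 35.1% and 46.2%, beside 69.6% of windows over regions in all samples. The CCAAT box CCAAT was in 17 of the 85 windows over gained regions, in 36.1% over lost regions and in 38.2% of all windows. The ETS core GGAAGT was also in 17 of the 85, beside 17.5% over lost regions and 24.8% of all windows. The EBF1 core is made largely of G and C. Windows over shared regions held it in 1698 of 9449 cases. Their median G and C was close to that of windows over gained regions, 62.0% against 61.0%. The sets were not matched for CpG pairs, with a CpG ratio above 0.6 in 80.4% of shared and 56.5% of gained windows. How far base composition accounts for the share with an EBF1 core was not tested.

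**Figure D5:**
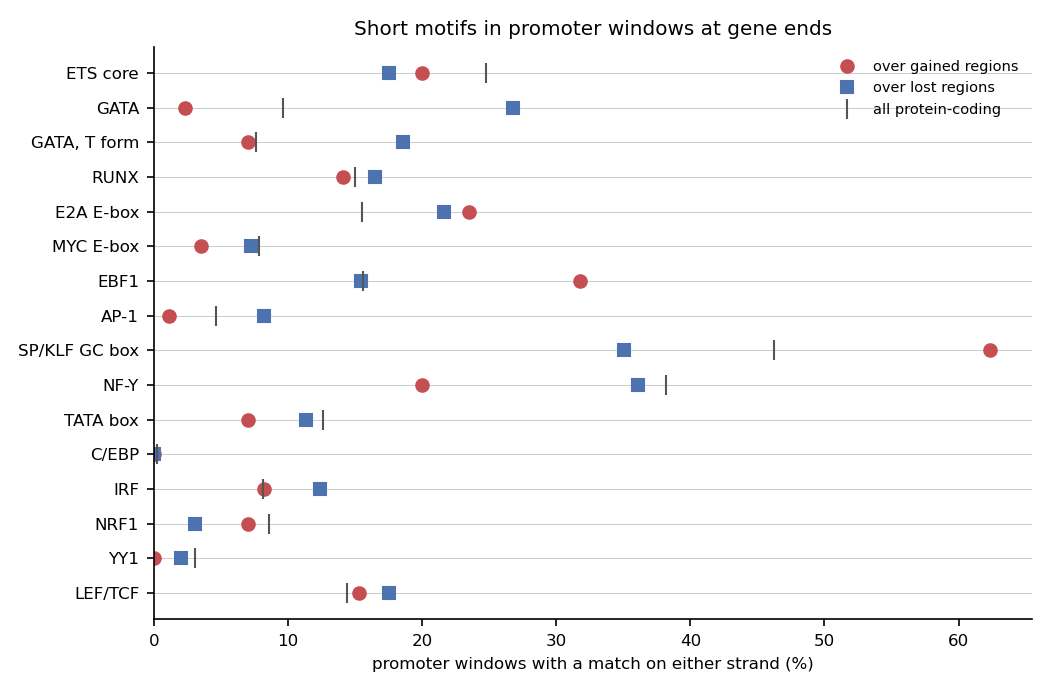
Share of RefSeq promoter windows (%, horizontal axis) with at least 1 match on either strand to each of 16 short motifs, for 85 windows over gained regions (red circles), 97 over lost regions (blue squares) and all 21263 windows (black ticks). The widest gap between gained and lost windows in favour of lost ones at any motif was at the GATA site, 2.35% against 26.8%.

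The other motifs searched were RUNX (TGTGGT), in 14.1% of windows over gained regions and 15.0% of all windows, and the MYC E-box (CACGTG), in 3.53% and 7.84%. AP-1 (TGACTCA) was in 1.18% and 4.66%, the TATA box (TATAAA) in 7.06% and 12.6%, and the IRF site (GAAANNGAA) in 8.24% and 8.15%. NRF1 (GCGCNTGCG) was in 7.06% and 8.61%, and the LEF/TCF site (CTTTGA) in 15.3% and 14.4%. The C/EBP site (TTGCGCAA) and the YY1 site (AAGATGGC) were in 0 of the 85 windows, beside 0.221% and 3.05% of all windows. With 85 windows, 1 match is 1.18%.

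By chromosome, gained regions made up the highest share of regions at gene ends on chromosome 15 (3.11%, 17 of 547). On chromosome X they were 9 of 403 (2.23%, 1.18% to 4.19%), beside 1.82% on autosomes (1.61% to 2.06%), intervals that overlap. The regions farthest inside the 1 kb window were at Dapk3, 995 bp from an end, and at Maged1 and C4bp, each 989 bp away. Their bases under peaks were 251, 249 and 504 bp, 720, 617 and 719 bp, and 336, 433 and 410 bp. The nearest gained regions outside the window were at Elof1 (1001 bp), Ebf1 (1004 bp) and Plcxd1 (1006 bp). Ebf1, the B lineage factor, had 240, 479 and 283 bp there, so a B lymphoid gene was left out by 4 bp.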

How the data were processed

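Open chromatin was measured by ATAC-seq in 3 wild-type and 3 Utx knockout samples. The authors deposited 1 peak list per sample with chromosome, start and end only, so no read count, score or depth was available and presence of a peak was the measurement. Per the submitters' processing notes, peaks were called with MACS2 on mm10. The sources used here do not give the aligner, read filters or insertion shift. Peaks sharing 1 bp or more were merged over the 6 samples. Gene positions came from RefSeq (GRCm38.p6), which held 21887 protein-coding genes; strand was known for the 17492 with a promoter entry, and other ends are of unknown kind. The regions, the 18 gene lists (517 entries, 514 of them annotated) and the motifs were chosen with earlier results of these data known. Named genes were the 12 widest regions, genes on a list, genes with 2 or more regions, the 6 regions with the closest agreement and the 3 on either side of the 1 kb limit; any other choice is stated. Some genes that meet the rule are not reported here. The promoters printed were restricted to annotated starts. Shares have Wilson 95% intervals. Exact two-sided permutation over samples compared values per sample. Alternatives changed the peak lists, overlap, window, presence rule and samples. Code was tested on simulated peaks. Python 3.11.15, pandas 2.3.3, numpy 2.4.6, scipy 1.17.1 and matplotlib 3.10.9 were used.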

Additional observations from a re-analysis of the deposited data

How the results depend on the processing

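The number of gained regions at gene ends was 260. It was 418 when a peak had to cover at least 50% of the region, 471 with a 2.5 kb window and 403 when 2 of 3 knockout samples were enough. Leaving out 1 sample gave 278 to 353. It stayed within 1.5 times 260 under the other alternatives. The share of gained regions at gene ends, 7.29%, became 9.79% with the widest 50% of peaks, 9.48% with peaks covering at least 50%, 8.63% with 500 bp windows around peak centres, 5.05% and 13.2% with windows of 500 bp and 2.5 kb, and 8.28% when 1 wild-type sample was allowed. Under the alternatives run, the share at a start ranged within its interval. The share with a wild-type peak at the same end, 19.2%, became 7.73%, 11.96%, 28.8%, 2.22% and 43.9% under the first 5 of these in the same order.

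The width differences depended on the setting and changed sign. Against gained regions elsewhere (-0.67 bp) they were 2.33 bp with equal list lengths, 21.3 bp with the widest 50%, 88.8 bp with 50% cover, 3.5 and 0 bp with windows of 500 bp and 2.5 kb, 15.3 bp with 2 knockout samples and 8 bp with 1 wild-type sample allowed, and -1 to 15 bp without 1 sample. Against lost regions (-1.17 bp) they were -120.0 bp with equal list lengths (exact permutation p = 0.1, the smallest possible), -30.7 bp with 2 knockout samples, 74.8 bp with the widest 50%, 41.8 bp with 50% cover, 11.3 bp with the 2.5 kb window and 4.67 bp with 1 wild-type sample allowed, and -16.8 to 57.7 bp without 1 sample. None could pass 0.05, and the cause of the changes was not tested. Equal list lengths and the widest 50% both kept peaks by width, the measure compared, so these settings cannot decide whether widths differ. The median agreement of knockout peaks, 63.5%, was 70.5% with the widest 50%, 68.1% with 50% cover, 79.5% with centred windows, 51.7% with 2 knockout samples, and 63.0% to 77.6% without 1 sample, where fewer samples have to share a base.

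The count of 9 B lymphoid genes was a result added after seeing the data. Under the same alternatives it became 19 with 50% cover and 5 with the 500 bp window, and was 8 to 10 without 1 sample. With a replicate block, the difference in the share of peaks at gene ends was 3.80 points (exact sign-flip p = 0.25, the smallest possible), and the width difference from lost regions was -1.17 bp (p = 1). The numbers do not pair the samples: same-numbered samples had correlations of their deviations of -0.022, 0.0057 and 0.019. No depth was known, so a missing peak may be one just under the caller's threshold.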
